A study of Mus musculus with 9 samples.

Results

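Proline transfer RNAs (tRNAs) left 16809 sequenced fragments in mouse blood serum, out of 555585 reads that met any tRNA reference. A read was counted as proline when every reference it aligned to was a nuclear Pro-AGG, Pro-CGG or Pro-TGG tRNA, the 3 letters being the anticodon as the gene encodes it. These reads made up 1216 of 41240 distinct sequences, and 672 of the 1216 were seen in 1 read only. The series studied atherosclerosis and SalB, which is salvianolic acid B, a polyphenol of danshen root, and all 9 libraries carry the label week 20. The groups were normal diet, high fat diet, and high fat diet with SalB, with 3 libraries each. The titles of the normal diet libraries name C57 and those of the other groups do not, and for those groups the strain, and for all groups the age, was left unstated in the sources used here. Strain therefore cannot be told apart from diet or treatment in either comparison with normal diet. The labels put every library under atherosclerosis as its cell type, the normal diet ones included, and do not say whether a library is 1 mouse or a pool. The p-values below measure the spread between these libraries, which may be technical.

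Proline tRNAs read the proline codons of messenger RNA, and the first base of the anticodon pairs with the third codon base. The encoded A at this place in Pro-AGG is converted to inosine in eukaryotic cells, and inosine is copied as G when RNA is made into cDNA. Mature tRNAs carry a CCA tail that no mouse nuclear tRNA gene encodes and that an enzyme adds at the 3′ end. Cuts in the anticodon loop split a tRNA near its middle, and cuts elsewhere give shorter fragments, of which many kinds have been described in blood.

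The mature references could be rebuilt base by base from the deposited alignments, and are shown because they differ at few places, which decides how far a fragment can be traced to 1 anticodon. Capitals mark the anticodon, at bases 33 to 35, and n marks a base no read covered.
Pro-AGG-1-1: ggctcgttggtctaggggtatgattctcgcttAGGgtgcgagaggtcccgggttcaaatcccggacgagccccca
Pro-TGG-1-1: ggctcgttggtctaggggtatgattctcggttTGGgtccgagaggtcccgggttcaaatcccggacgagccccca
Pro-TGG-3-1: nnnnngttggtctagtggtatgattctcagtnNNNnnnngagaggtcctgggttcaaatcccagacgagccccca
Counted from 1 at the 5′ end of the 75-base Pro-AGG-1-1, Pro-CGG-1-1 differed from it by A33C and Pro-TGG-2-1 by A33T, both within the anticodon. Pro-TGG-1-1 differed by C30G, A33T and G38C. Bases 30 and 38 face each other where the anticodon stem meets the loop, so the C-G pair of Pro-AGG-1-1 is a G-C pair in Pro-TGG-1-1. Pro-TGG-4-1, seen to base 63, differed by G29A, A33T, C39T, C49T and G63A. Pro-TGG-3-1 differed by G16T, G29A, C30G, C49T and G63A among the bases seen, and 13 of its bases were not covered. In RefSeq's GRCm38.p6, the assembly also called mm10, proline tRNA genes with these anticodons stand at 16 loci on 9 chromosomes, 6 for AGG, 3 for CGG and 7 for TGG. Each is 72 bases long, without the CCA. Of these, 1 lies within another gene's span: the Pro-TGG gene n-TPtgg2, on chromosome 11 from 67291139 to 67291210, within Myh8. A Pro-TGG gene on chromosome 7 from 98815415 to 98815486 stands close to a Pro-AGG gene from 98815676 to 98815747. No source used here ties a locus to a reference name.

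Because the references are alike, 15809 of the 16809 reads (94.1%) aligned to all 3 anticodons and cannot be split between them. Pro-TGG alone took 957 reads (5.69%), Pro-CGG alone 31 and Pro-AGG alone 12. These counts follow the alignments and do not measure each tRNA. Of all proline reads, 382 ended in G at base 30, which matches Pro-TGG-1-1, but last bases there often differed from the references. Another 357 had G at base 33 inside them, a base in no reference, and are not among the Pro-AGG-only reads. Of the Pro-TGG reads, 690 met only Pro-TGG-1-1, 127 only Pro-TGG-2-1, 70 only Pro-TGG-4-1 and 15 only Pro-TGG-3-1. The Pro-TGG share of proline reads was 5.04% ± 0.988 with normal diet, 5.98% ± 0.773 with high fat diet and 5.74% ± 1.44 with SalB (SD, n = 3). A further 47 reads met both Pro-TGG-3-1 and Pro-TGG-4-1, and 36 of these came from SalB 2. The most abundant Pro-AGG-only fragment was ttAgggtgcgagaggtcccgggtt, bases 31 to 54 with base 33 in capitals, with 2 reads in all. The most abundant Pro-CGG-only fragment was tcgggtgcgagaggtcct, bases 32 to 49 with A33C and C49T against Pro-AGG-1-1, with 4 reads.

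The libraries held 28191 to 156333 tRNA reads and 1278 to 3422 proline reads. SalB 2 was the deepest and stood apart: 42.0% of its tRNA reads came from 1 leucine tRNA precursor, Leu-CAG-3-1, against 2.55% in SalB 1 and 0.0177% to 0.107% in the other 7 libraries. Its scaling factor by trimmed means of M values (TMM) was 0.471, against 0.917 to 1.21 in the others. The files list reads of 14 to 40 bases with at most 1 mismatch, so shorter fragments were not analysed here.

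Reads ending at base 30, the last base before the anticodon loop, were the largest class of proline reads by last base. They numbered 11329, or 67.4% of proline reads. Their share was 72.9%, 58.4% and 56.7% in normal diet 1 to 3, 78.0%, 72.1% and 76.2% in high fat diet 1 to 3, and 81.7%, 42.6% and 82.4% in SalB 1 to 3. SalB 2 had the lowest share and the other SalB libraries the highest ones. Only 6.76% of proline reads ended at base 31 and 2.31% at base 32, and a further 9.39% ended at base 75, the last base of the CCA tail.

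**Figure D1:**
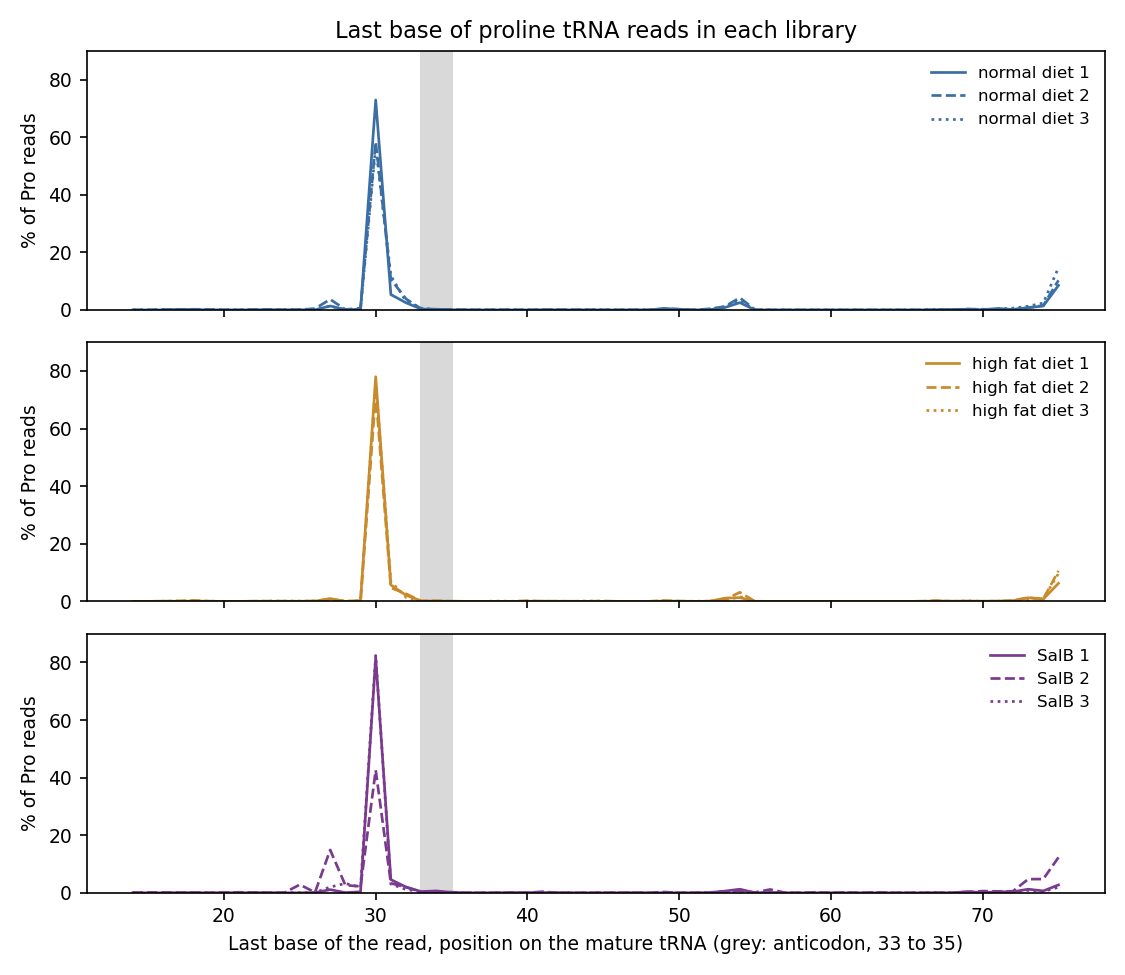
Share of proline reads (vertical axis, %) by the position of the read's last base on the mature tRNA (horizontal axis), 1 line per library and 1 panel per group. In every library the highest point is at base 30, just before the grey anticodon, from 42.6% in SalB 2 to 82.4% in SalB 3, and SalB 2 has a further point of 14.9% at base 27.

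The start of these fragments varied more than the end. Of the reads ending at base 30, 65.6% (7427) began at base 17 and so had 14 bases, the shortest length listed. Another 9.63% (1091) began at base 13, 6.41% at base 11, 5.87% at base 14, 4.19% at base 16, 4.18% at base 8 and 2.32% (263) at base 1. These are the fragments that share this end, shown to compare their starts, with base 30 in capitals.
1 to 30: ggctcgttggtctaggggtatgattctcgC
8 to 30: tggtctaggggtatgattctcgC
11 to 30: tctaggggtatgattctcgC
13 to 30: taggggtatgattctcgC
14 to 30: aggggtatgattctcgC
16 to 30: gggtatgattctcgC
17 to 30: ggtatgattctcgC
The fragment 17 to 30 had 4524 reads, 26.9% of proline reads, and was the 11th most abundant distinct sequence of the series (rank 11). Reads were assigned by tRNA references only, and whether those of 14 bases also match other RNAs was not tested. Whether reads shorter than 14 bases continue this series of starts was not analysed here.

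The last base of these reads often differed from the references. Among reads ending at base 30, 65.9% had C there, 22.7% T, 8.10% A and 3.37% G. Only C and G at base 30 occur in the proline references. In the 1679 reads that ran past base 30, the same base was C in 80.0%, G in 18.7%, T in 0.953% and A in 0.298%. So T and A at base 30 were found almost wholly where it was the end of the read. The 4 variants of the 14-base fragment are set out here with base 30 in capitals.
17 to 30: ggtatgattctcgC
17 to 30 C30T: ggtatgattctcgT
17 to 30 C30A: ggtatgattctcgA
17 to 30 C30G: ggtatgattctcgG
The C30T form had 1705 reads, the C30A form 561 and the C30G form 210. The C30G form is also an exact match to Pro-TGG-1-1 and aligned only there. T was the last base at position 30 in 21.4% ± 1.5 of the reads ending there with normal diet, 21.6% ± 0.690 with high fat diet and 26.1% ± 2.09 with SalB (SD, n = 3). Over all proline reads, 20.7% to 39.6% per library had their mismatch at the last base, against 15.2% to 27.9% of other nuclear tRNA reads, and the proline share was higher in 9 of 9 libraries. Mismatches elsewhere in the read were fewer in proline than in other nuclear tRNA reads, 6.29% to 17.1% against 12.7% to 22.1%. The files allow at most 1 mismatch per read, so a read with it at the last base can have none elsewhere. Proline reads were also more often only 14 bases long, with fewer inner bases. The lower share elsewhere is therefore not a separate result.

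Compared with reads of all other mature nuclear tRNAs in the same libraries, proline reads came far more often from inside the tRNA. Internal reads, which neither start at the first base nor reach the CCA tail, were 60.7% to 93.9% of proline reads (median 84.8%), against 28% to 54.8% (median 34.5%) of the others. The mean difference was 44.2 ± 10.7 percentage points (SD, n = 9), higher in 9 of 9 libraries (exact sign-flip permutation p = 0.00391, adjusted 0.00469 over 6 measures, the raw value being the smallest this test can give). The 5′ share differed by -13.3 ± 4.38 points and the 3′ share by -30.8 ± 12.3 points, both lower in proline in 9 of 9 libraries and with the same p. Reads of 28 to 36 bases, about the size left by a cut in the anticodon loop, were 1.04% to 13.4% of proline reads and 11.6% to 22.7% of the others, a mean difference of -11.9 points with the same p. Proline precursor reads were 0.438% to 1.90% of proline nuclear reads, against 5.93% to 54.5% for the other tRNAs, the highest being SalB 2. The share of reads with any mismatch differed by 1.37 ± 1.95 points and was higher in 6 of 9 libraries, which did not pass (exact sign-flip permutation p = 0.0586). With each distinct sequence counted once in place of its reads, the differences were smaller: 14 points for the internal share, -8.14 for the 3′ share, -5.90 for the 5′ share and -4.20 for the precursor share (exact sign-flip permutation, adjusted p from 0.00781 to 0.0141). With reads of 16 to 40 bases the 5′ difference was -8.06 points (adjusted p = 0.0117), and without the Leu-CAG-3-1 reads the precursor difference was -8.66 points (0.00469), by the same exact test. Without normal diet 3 the mismatch difference was 1.62 points (exact sign-flip permutation, adjusted p = 0.0312).

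**Figure D2:**
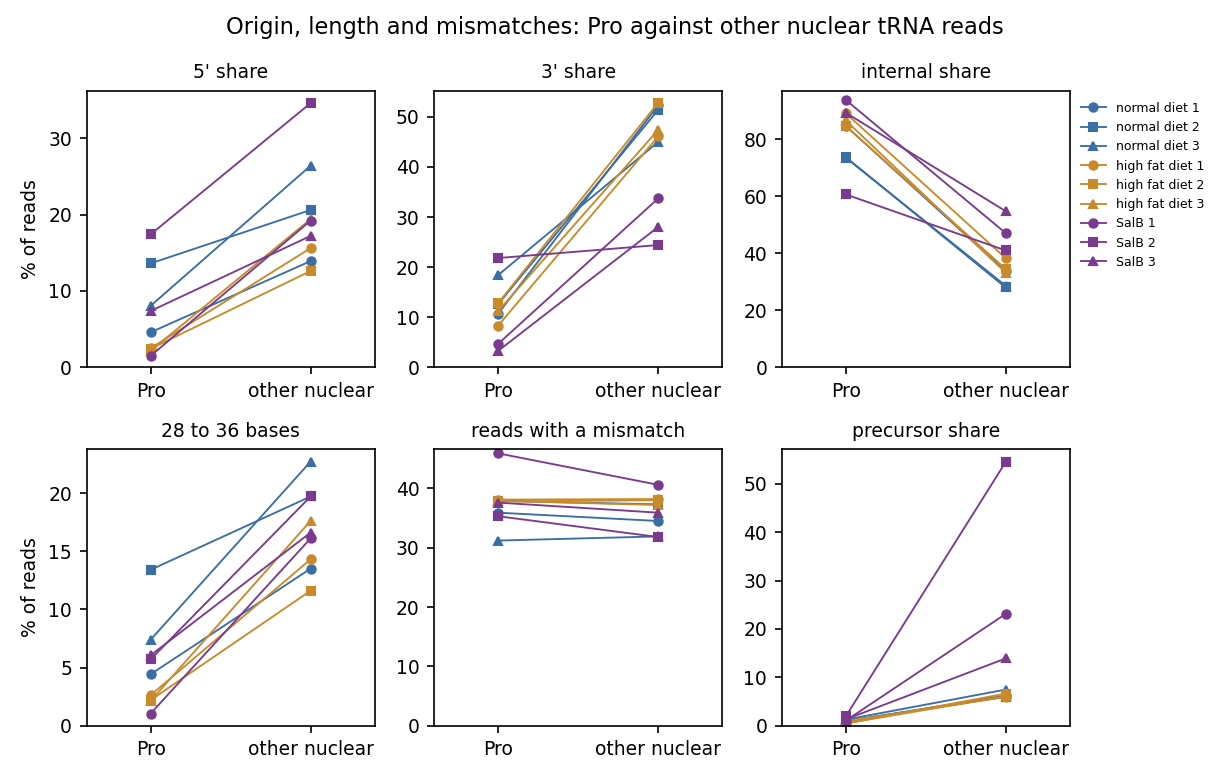
The 6 measures in each library, as a share of reads (vertical axes, %, from 0), for proline reads and for reads of the other nuclear tRNAs; each line joins the 2 values of 1 library. The internal share is higher in proline in 9 of 9 libraries and the 5′, 3′, 28 to 36 base and precursor shares are lower in 9 of 9.

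Fragments of 14 bases were 28.5% to 59.6% of proline reads and 3.55% to 8.80% of other nuclear tRNA reads. By group they were 41.3% ± 10.2 with normal diet, 55.8% ± 3.33 with high fat diet and 41.3% ± 14.5 with SalB (SD, n = 3).

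The proline share of all tRNA reads was lower in the SalB libraries than in either other group. It was 4.58%, 4.11% and 3.61% in normal diet 1 to 3, 4.06%, 4.83% and 4.32% in high fat diet 1 to 3, and 2.17%, 1.26% and 3.21% in SalB 1 to 3. The SalB values did not overlap those of the other groups, and SalB 2 was lowest, with an exact 95% Clopper-Pearson interval of 1.20% to 1.31% that covers counting error only. Means were 4.10% ± 0.484, 4.40% ± 0.396 and 2.21% ± 0.980 (SD, n = 3). SalB minus high fat diet was -2.19 points and SalB minus normal diet -1.89 points (two-sided exact permutation p = 0.1 each, adjusted 0.15 over 3 comparisons), where 0.1 is the smallest p that 3 against 3 allows. High fat diet minus normal diet was 0.302 points (exact permutation p = 0.5). With the Leu-CAG-3-1 precursor reads taken out of the total, the SalB shares were 2.23%, 2.17% and 3.22%. As a share of mature nuclear tRNA reads they were 3.43%, 2.98% and 4.56%, which overlapped 4.02% to 5.06% with normal diet and 4.46% to 5.40% with high fat diet.

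Levels scaled by TMM are given as normalised counts per 1000000 (CPM), relative to the reads of the tested fragments and not to all RNA. On this scale the proline total was 52500 ± 4290 CPM with normal diet, 55100 ± 4230 with high fat diet and 44100 ± 5770 with SalB (SD, n = 3). The log2 difference was -0.32 for SalB against high fat diet (limma-voom adjusted p = 0.151), -0.25 for SalB against normal diet (0.237) and 0.08 for high fat diet against normal diet (0.967). None was called, at an adjusted p under 0.05, whereas 41.1%, 53.6% and 0.0% of the 56 sums per amino acid were called in these comparisons. The call depends on the scale: with total tRNA reads as the scale, the proline total was lower with SalB by -1.20 against high fat diet (limma-voom adjusted p = 0.0158) and -1.09 against normal diet (0.0229). That scale moved the median of all tested fragments by -0.85 and -0.88. In bulk serum, fewer cells giving off a fragment and less of it per cell cannot be told apart.

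On the TMM scale the sums by origin and by anticodon were not called either. The internal sum was 40700 ± 6020, 47800 ± 2460 and 35500 ± 7540 CPM with normal diet, high fat diet and SalB (SD, n = 3), with log2 differences of -0.46 for SalB against high fat diet (limma-voom adjusted p = 0.122) and -0.20 against normal diet (0.457). The 5′ sum was 2533, 7420 and 3824 CPM in normal diet 1 to 3 and 1261, 1431 and 1184 CPM in high fat diet 1 to 3, so these groups did not overlap. Their log2 difference of -1.68 was not called with all 9 libraries in the fit (limma-voom adjusted p = 0.636), and was -1.62 with an adjusted p of 0.0119 when only those 6 libraries were fitted. In SalB 1 to 3 the 5′ sum was 555.2, 8074 and 3562 CPM, spanning the other groups. Against high fat diet its log2 difference was 0.97 (limma-voom adjusted p = 0.352), and without SalB 1 it was 2.18 (0.0106). Against normal diet it was -0.71, and 0.49 without SalB 1, neither called. The 3′ sum was 1749, 10130 and 1575 CPM in SalB 1 to 3, against 4212 to 7591 with high fat diet and 5910 to 8760 with normal diet. SalB 2 lay above and the other 2 SalB libraries below both groups. Its log2 difference was -0.92 against high fat diet (limma-voom adjusted p = 0.236) and -1.21 against normal diet (0.122), and without SalB 2 it was -1.68 (0.000973) and -1.97 (0.000286). With total tRNA reads as the scale the 3′ sum was called in both, at -1.63 (limma-voom adjusted p = 0.0163) and -1.85 (0.00752). Of the 93 sums of 1 origin, 38.7%, 52.7% and 0.0% were called for SalB against high fat diet, SalB against normal diet and high fat diet against normal diet.

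The reads shared by the 3 anticodons summed to 49700 ± 4480, 51700 ± 4360 and 41500 ± 5990 CPM with normal diet, high fat diet and SalB, and the Pro-TGG-only reads to 2620 ± 312, 3270 ± 176 and 2480 ± 403 CPM (SD, n = 3). For SalB against high fat diet their log2 differences were -0.32 and -0.40 (limma-voom adjusted p = 0.159 and 0.143), and for SalB against normal diet -0.26 and -0.07 (0.242 and 0.810). For high fat diet against normal diet they were 0.06 and 0.33 (limma-voom adjusted p = 0.939 and 0.875). With total tRNA reads as the scale both were called for SalB against high fat diet, at -1.11 (limma-voom adjusted p = 0.0302) and -1.16 (0.0236). Of the 103 sums per anticodon family, 31.1%, 34.0% and 0.0% were called in these comparisons. Among the 6 tested families whose anticodons, like Pro-AGG, start with an encoded A, 2 rose and 2 fell with SalB against high fat diet, 1 fell against normal diet, and none changed with high fat diet against normal diet. Their median log2 difference was -0.47 for SalB against high fat diet, beside 0.54 over all families tested. Of the sums of the 21 other nuclear amino acids, 7 rose and 1 fell in each SalB comparison.

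Single fragments differed more than these sums. Of the 1216 distinct proline sequences, 25 were abundant enough to be tested, and they held 69.7% of proline reads. They were 3 5′, 18 internal and 4 3′ fragments, and 15 of them ended at base 30. With SalB against high fat diet, 1 rose and 3 fell, where 17.6% of the 733 tested fragments of all tRNAs rose and 16.6% fell. Their median log2 difference was -0.89, beside -0.15 over all tested. With SalB against normal diet 2 rose and 8 fell, where 20.5% of all tested rose and 18.6% fell, with a median of -0.96 beside -0.10. The 2 comparisons share the SalB libraries. The level needed for testing was reached in no SalB library by 12 of the 25, which passed through groups in which they were higher, and 7 of the 8 and 2 of the 3 that fell are among these. The counts of falls therefore describe the fragments that passed and not all proline fragments. Scaled by total tRNA reads, 0 rose and 16 fell in the first comparison and 0 rose and 14 fell in the second. That scale moved the median of all tested fragments by -0.85 and -0.88. The share of all tested fragments called on it is not given here, so these counts are not a result about proline. With high fat diet against normal diet none was called by limma-voom, as 0.0% of all tested were in either direction, and 4 of 25 had an unadjusted p under 0.05.

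**Figure D3:**
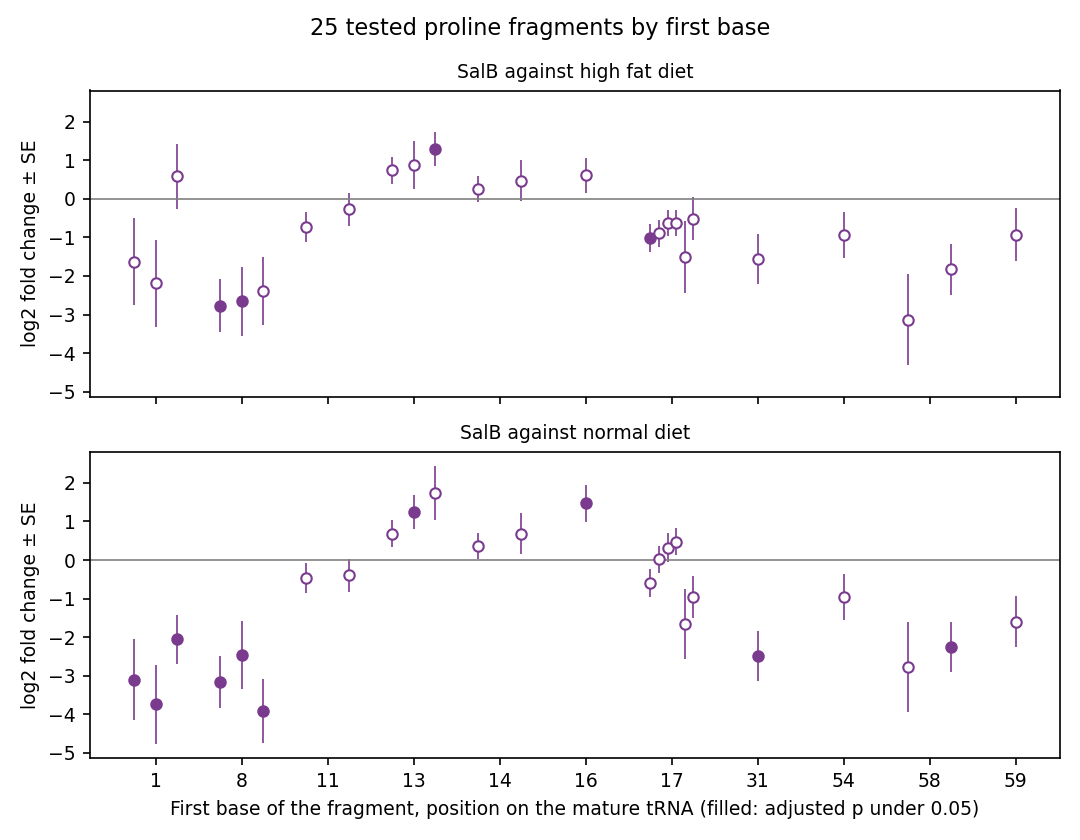
log2 difference with its standard error (vertical axes) of the 25 tested proline fragments, placed by first base (horizontal axis), for SalB against high fat diet and against normal diet; filled points passed an adjusted p of 0.05. The fragments from base 8 lie between -2.77 and -2.40 against high fat diet, and those from base 13 between 0.74 and 1.29.

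The 3 tested fragments that started at base 8 were lower with SalB. None of them reached the level needed for testing in any SalB library, so they were tested through groups in which they were higher. Their falls are therefore given as a description, with the fits beside them. The fragment 8 to 30 stood at 1350, 2300 and 876 CPM in normal diet 1 to 3, 676, 1470 and 1150 in high fat diet 1 to 3, and 250, 94.4 and 112 in SalB 1 to 3. Each SalB value lay below every other library. It fell by 2.77 on the log2 scale against high fat diet (SE 0.68, limma-voom adjusted p = 0.0101) and by 3.17 against normal diet (SE 0.67, adjusted p = 0.00416). The SalB values rest on 9, 4 and 3 reads. Without SalB 2 the first call was lost (adjusted p = 0.0622), while the second was kept with each library left out.

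Its C30T form stood at 338, 1020 and 222 CPM with normal diet, 338, 434 and 520 with high fat diet, and 55.5, 23.6 and 112 with SalB, on 2, 1 and 3 SalB reads, and again did not overlap. It fell by 2.66 against high fat diet (limma-voom adjusted p = 0.0373) and fell by 2.47 against normal diet (0.0439). The first call was lost without any 1 of normal diet 1, high fat diet 1 to 3 or SalB 1 to 3 (adjusted p from 0.0533 to 0.129), and the second without the same libraries (0.0551 to 0.156), with size factors from median ratios (0.0518) and with reads of 16 to 40 bases (0.0512). The fragment running 1 base further, 8 to 31, stood at 535, 1540 and 612 CPM with normal diet, 158, 347 and 404 with high fat diet and 27.8, 47.2 and 37.5 with SalB. The 3 groups did not overlap and stood in that order. Scaled to the median library, the SalB values rest on 0.713, 0.568 and 1.11 reads. The fragment 8 to 31 fell by 3.91 with SalB against normal diet (SE 0.83, limma-voom adjusted p = 0.00416), with each library left out too. Against high fat diet its log2 difference was -2.40, not a call (limma-voom adjusted p = 0.0524). All proline reads from base 8 to base 30 or 31, mismatched forms included, came to 3710 ± 2120, 2520 ± 803 and 294 ± 70.9 CPM with normal diet, high fat diet and SalB (SD, n = 3).

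Fragments from base 13, a few bases on, did not fall with SalB. The fragment 13 to 30 stood at 1740, 1410 and 1520 CPM with normal diet, 1260, 1470 and 1790 with high fat diet, and 3910, 1650 and 2440 with SalB, and was not called in any comparison. Its C30T form stood at 929, 426 and 348 CPM, 518, 390 and 549 CPM, and 1920, 850 and 1120 CPM in the same order. With SalB it was above every high fat diet library, and SalB 2 lay below normal diet 1. The C30T form rose by 1.29 against high fat diet (SE 0.45, limma-voom adjusted p = 0.0441) and by 1.24 against normal diet (SE 0.44, adjusted p = 0.0423). The first call was lost without any 1 of normal diet 2, high fat diet 1 to 3 or SalB 1 (adjusted p from 0.0579 to 0.12), and the second without normal diet 2 or 3, high fat diet 1 to 3 or SalB 1 (0.0619 to 0.13). Both were lost with total tRNA reads as the scale, at log2 differences of 0.50 and 0.48, and with no filter on low counts (adjusted p = 0.0898 and 0.0754), and the second with only the 6 libraries compared (0.114). Among all reads ending at base 30, those starting at base 13 made up 7.5% ± 0.715 with normal diet, 6.18% ± 0.825 with high fat diet and 16.9% ± 6.63 with SalB (SD, n = 3), with no overlap of SalB and the other groups.

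The fragment 16 to 30 stood at 704, 299 and 334 CPM with normal diet, 586, 1040 and 780 with high fat diet, and 1580, 637 and 1690 with SalB. SalB 2 lay within the range of the other groups and the other SalB libraries above it. It rose by 1.47 with SalB against normal diet (SE 0.48, limma-voom adjusted p = 0.0318), a call lost without normal diet 2 or 3 or SalB 1 or 3 (adjusted p from 0.0639 to 0.0944) as well as with total tRNA reads as the scale (0.373) and with only the 6 libraries compared (0.0785). The fragments 11 to 30 and 14 to 30 were not called: 14 to 30 was 1030 ± 140, 1150 ± 358 and 1340 ± 247 CPM, and 11 to 30 was 1290 ± 361, 1520 ± 217 and 989 ± 408 CPM (SD, n = 3).

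The most abundant fragment, 17 to 30, stood at 18000, 9980 and 12600 CPM with normal diet, 17400, 18000 and 17600 with high fat diet, and 6660, 6440 and 16300 with SalB. SalB 3 lay near the high fat diet libraries, which were close to each other. It fell by 1.01 with SalB against high fat diet (SE 0.36, limma-voom adjusted p = 0.0494). That call was lost without any 1 of normal diet 2 or 3, high fat diet 1 to 3 or SalB 1 or 2 (adjusted p from 0.0507 to 0.207). It was also lost with size factors from median ratios (0.0594), a stricter filter (0.0502) and limma on log2 values (0.054). The C30T, C30A and C30G forms of this fragment were not called in any comparison. With high fat diet against normal diet, the C30G form (log2 difference 1.21) and the C30A form (1.10) had the smallest p among the proline fragments that were higher (limma-voom adjusted p = 0.308 each).

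**Figure D4:**
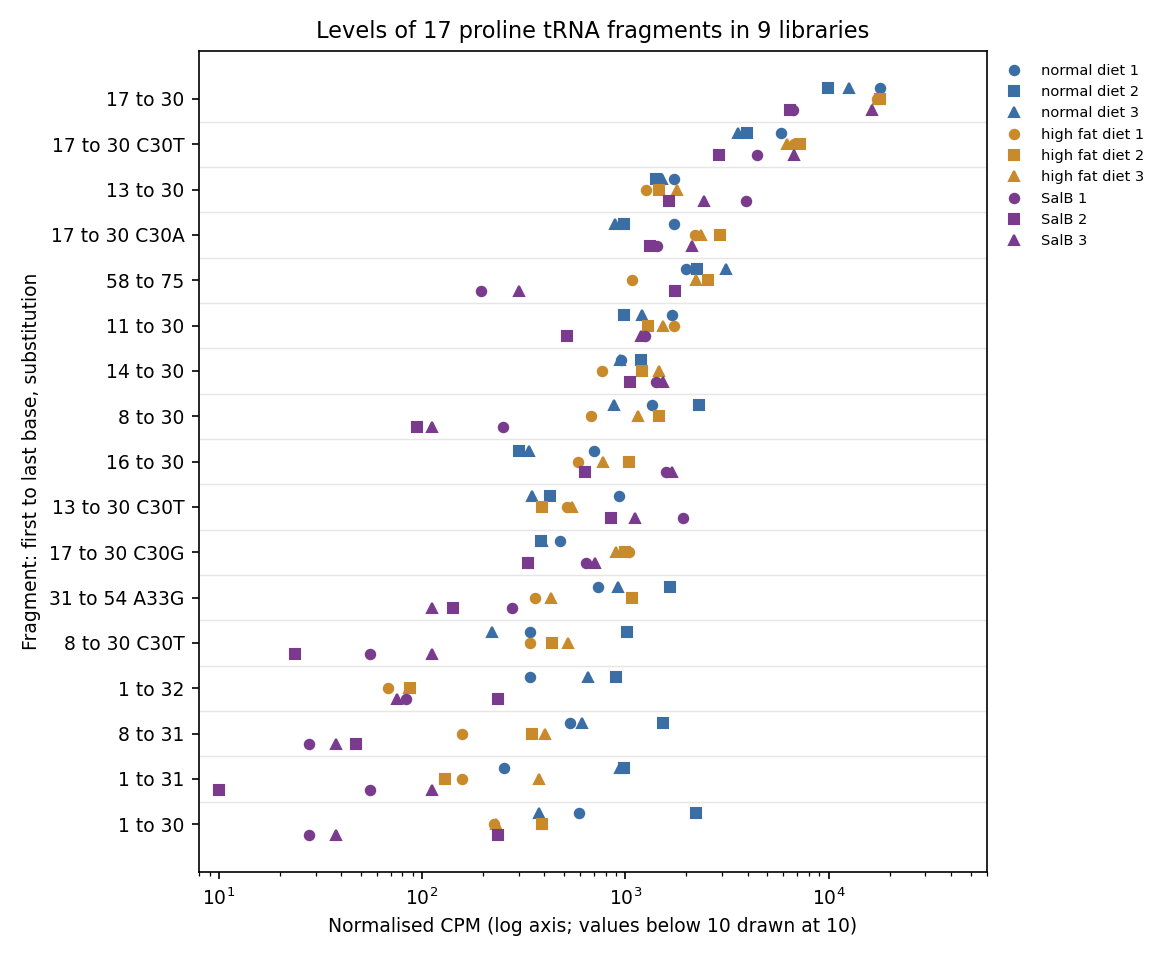
Normalised CPM (horizontal log axis) of 17 proline fragments in each of the 9 libraries, with colour for the group and shape for the replicate number. In the rows for 8 to 30 and 8 to 31 the SalB points lie below all others, from 94.4 to 250 and from 27.8 to 47.2 CPM.

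At the 5′ end of the tRNA, the fragments 1 to 30 and 1 to 31 end at or just inside the anticodon loop. Both stood lower with SalB than with normal diet, but neither reached the level needed for testing in any SalB library. They were tested through groups in which they were higher, so their falls are given as a description. The fragment 1 to 30 stood at 591, 2220 and 375 CPM with normal diet, 225, 390 and 231 with high fat diet, and 27.8, 236 and 37.5 with SalB. The fragment 1 to 31, with 1 more base, stood at 253, 981 and 946 CPM, 158, 130 and 375 CPM, and 55.5, 0.0 and 112 CPM in the same order. In both, every SalB library was below every normal diet library, and SalB 2 was in the high fat diet range only for 1 to 30. Scaled to the median library, 1 to 30 had 0.713, 2.84 and 1.11 reads in SalB 1 to 3. The fragment 1 to 31 had 1.43, 0.0 and 3.32. Their log2 differences were -3.10 (SE 1.06, limma-voom adjusted p = 0.0373) and -3.74 (SE 1.03, adjusted p = 0.0146). The first call was lost without normal diet 1, high fat diet 1 or 3, or SalB 1 or 3 (adjusted p from 0.0547 to 0.129) and with only the 6 libraries compared (0.0615), and the second without SalB 2 (0.063). The fragment 1 to 31 was not tested without normal diet 3, and neither was tested with a stricter filter.

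The fragment 1 to 32 stood at 338, 896 and 654 CPM with normal diet, 67.6, 86.8 and 86.6 with high fat diet, and 83.3, 236 and 75 with SalB. Every high fat diet and every SalB library lay below every normal diet library. Its reads were 12, 21 and 47 with normal diet, 3, 2 and 3 with high fat diet and 3, 10 and 2 with SalB. It reached the level needed for testing in the normal diet libraries alone, the 1 fragment of the 25 that passed through a single group, and it was not tested when any of these was left out. Its log2 differences, -2.06 for SalB and -2.65 for high fat diet against normal diet, are therefore given as a description, although the first is counted among the 8 falls. For high fat diet against normal diet, 8 to 31 had a log2 difference of -1.51 (limma-voom adjusted p = 0.308).

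Shorter 5′ fragments were abundant in 2 SalB libraries. This division was drawn after the values were seen and is given as a description. Of the 5′ proline reads, those ending at bases 25 to 29 numbered 4, 11 and 18 in normal diet 1 to 3, 4, 1 and 1 in high fat diet 1 to 3, and 3, 291 and 80 in SalB 1 to 3. That was 85.1% of 5′ reads in SalB 2, 84.2% in SalB 3 and 15% of the 20 5′ reads of SalB 1, against 2.44% to 7.14% in the 6 other libraries. Reads ending at bases 30 to 33 were 10.2% and 11.6% in SalB 2 and 3, and 66.7% to 87.9% in the 6 other libraries. The 5′ reads of other nuclear tRNAs were 12.9%, 24.1% and 11.3% of 25 to 29 bases in SalB 1 to 3, and 3.99% to 6.19% elsewhere. These are the short 5′ fragments, printed to compare their ends with the fragment 1 to 30 above.
1 to 25: ggctcgttggtctaggggtatgatt
1 to 27: ggctcgttggtctaggggtatgattct
1 to 28: ggctcgttggtctaggggtatgattctc
1 to 29: ggctcgttggtctaggggtatgattctcg
The fragment 1 to 25 had 41 of its 43 reads in SalB 2. The fragment 1 to 27 had 129 reads in SalB 2, 12 in SalB 3, 1 in SalB 1, 14 with normal diet and 0 with high fat diet. Set against a floor of 3 reads over the 3 high fat diet libraries, its pooled SalB reads were at least 46.0-fold higher, and at least 7.06-fold without SalB 2. Such folds pool the reads of a group and carry no spread between libraries. They do not describe SalB 1, which had 1 read. With mismatched forms counted, high fat diet 1 and 2 each had 1 5′ read ending at base 27. The fragment 1 to 28 had 34 and 32 reads in SalB 2 and 3 and 1 in SalB 1. Its pooled SalB reads were at least 21.7-fold higher than high fat diet, or at least 17.9-fold without SalB 2, with the same limits.

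**Figure D5:**
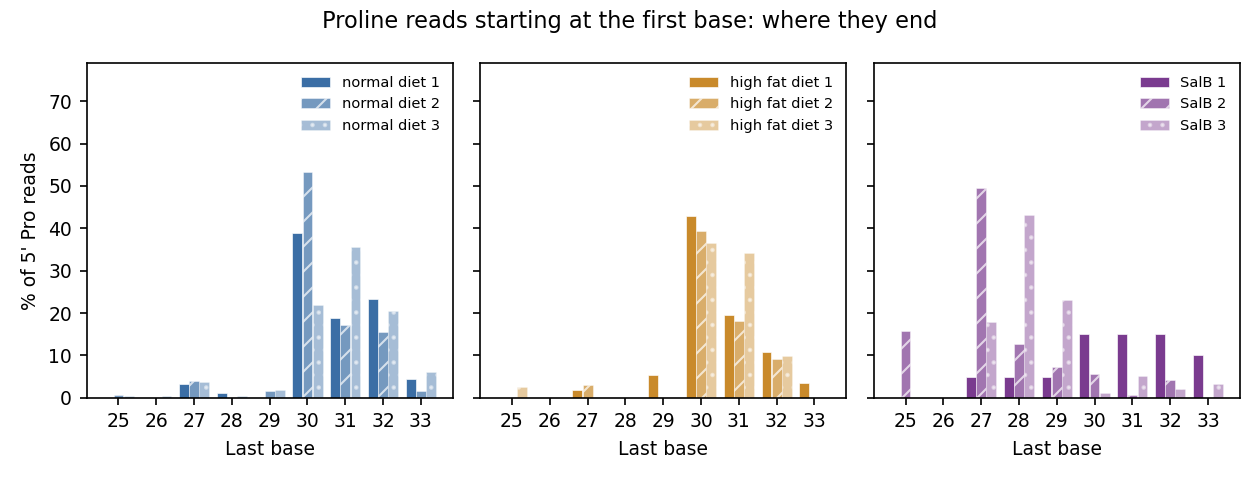
Share of 5′ proline reads (vertical axis, %) by last base (horizontal axis, bases 25 to 33), 1 bar per library and 1 panel per group. Bases 30 to 32 hold the highest bars with normal and high fat diet, and base 27 in SalB 2 (49.4%) and base 28 in SalB 3 (43.2%).

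At the 3′ end a smaller share of reads reached the last base of the CCA tail with SalB. Of the 2112 3′ reads, 1578 (74.7%) ended at base 75, reads with a mismatched last base included. The share ending there was 80.0%, 81.4% and 80.0% in normal diet 1 to 3, and 75.4%, 82.9% and 86.0% in high fat diet 1 to 3. In SalB 1 to 3 it was 58.7%, 56.4% and 59.5%. All SalB libraries lay below all others, at 58.2% ± 1.62 against 81.4% ± 5.46 and 80.5% ± 0.789 (SD, n = 3). Reads ending at base 73, after the first C of the tail, were 25% ± 2.86 with SalB, 10.3% ± 4.70 with high fat diet and 6.78% ± 0.498 with normal diet. SalB 1 and 3 had only 63 and 42 3′ reads, and this measure was chosen after the values were seen, so it is a description with no test. By their last 3 letters alone, 58.6% ± 6.99 of proline 3′ reads ended in CCA with SalB, 73.8% ± 5.6 with high fat diet and 77.1% ± 2.30 with normal diet. The 3′ reads of other nuclear tRNAs ended in CCA in 67.4% ± 3.10, 74.7% ± 1.23 and 74.8% ± 0.504 in the same order (SD, n = 3). There too each SalB library, from 64.2% to 70.4%, lay below each of the others, from 73.3% to 75.5%, so the lower share was not particular to proline. By letters, the proline gap was narrow at its edge, with SalB 3 at 66.7% and high fat diet 1 at 67.9%.

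Base 58, near the 3′ edge of the T loop, was the most frequent start of 3′ reads, at 50.9% of them, and 16.8% began at base 59. The share from base 58 was 56.7% ± 2.27 with normal diet, 54.9% ± 4.76 with high fat diet and 34.7% ± 3.90 with SalB (SD, n = 3). The SalB values of 31.7%, 39.2% and 33.3% lay below the 49.7% to 59.1% of the other libraries, a description chosen after the values were seen. The fragment 58 to 75 is printed as the most abundant 3′ form, with the CCA tail in capitals.
58 to 75: atcccggacgagcccCCA
It stood at 2000, 2260 and 3130 CPM with normal diet, 1080, 2560 and 2220 with high fat diet, and 194, 1750 and 300 with SalB. SalB 2 lay within the high fat diet range and the other 2 SalB libraries far below it. It fell by 2.26 with SalB against normal diet (SE 0.65, limma-voom adjusted p = 0.0179). The call was lost without normal diet 3 (0.0649), SalB 1 (0.0959) or SalB 3 (0.0673). Against high fat diet its log2 difference of -1.83 missed the threshold (limma-voom adjusted p = 0.0503).

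Reads across the anticodon mostly carried G at its first base. Of 509 reads that had base 33 inside them, 357 (70.1%) had G, 119 T, 26 C and 7 A. G at base 33 is in no proline reference seen, while A, C and T stand for Pro-AGG, Pro-CGG and Pro-TGG. By group, G made up 71.4% ± 6.86 with normal diet, 77.6% ± 7.94 with high fat diet and 48.2% ± 4.14 with SalB (SD, n = 3), on 41 G reads in the 3 SalB libraries together. The SalB values of 52.9%, 46.2% and 45.5%, on 18, 18 and 5 G reads, lay below those of the 6 other libraries, 66.7% to 83.7%. They rest on few reads and are given as a description, chosen after the values were seen. Inside reads, a base found in no proline reference made up 4.25% at base 9 (97 of 2283 reads) and 4.80% at base 31 (26 of 542). The fragment with the G is shown whole, with that base in capitals.
31 to 54 A33G: ttGgggtgcgagaggtcccgggtt
It had 206 reads, against 2 of the same fragment with A. It stood at 732, 1660 and 918 CPM with normal diet, 360, 1080 and 433 with high fat diet, and 278, 142 and 112 with SalB. All SalB libraries were below all others. Its log2 difference for SalB against normal diet was -2.49 (SE 0.64, limma-voom adjusted p = 0.0106), a call lost without SalB 2 (0.0584). The fragment reached the level needed for testing in no SalB library. It was tested through groups in which it was higher, so its fall is a description. Against high fat diet its log2 difference of -1.55 missed the threshold (limma-voom adjusted p = 0.0843).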

How the data were processed

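Total RNA from serum was made into tRNA fragment libraries by adapter ligation, cDNA synthesis and gel size selection and sequenced on an Illumina instrument, per the labels' protocols. The submitters' processing notes name FastQC, cutadapt, Bowtie, edgeR and mm10, without versions or roles. The deposited files list alignments, 1 file a library, with read counts inside read names. These counts were used as the authors deposited them, each read counted once. The members, the lists and the rule for named fragments (the most abundant, those called, and the nearest where none was called) were chosen with earlier results of these data known.

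Fragments, and sums per amino acid, origin and anticodon family, were fitted with limma-voom (limma 3.58.1, R 4.3.3) over all 9 libraries, with TMM scaling (trims of 30% and 5%) and Benjamini-Hochberg adjustment over each whole table at 0.05. Tested fragments reached 10 reads, after scaling to the median library (44415 reads), in at least 3 libraries, and 15 reads in all. The procedure was run on simulated counts drawn with the same spread in every group, so it was not tested with unequal spread. Replicates of a group differed by more than sampling noise (chi-square per degree of freedom of 2.76 or more). The values were 2.76 to 3.19 with high fat diet and 4.41 to 9.15 with normal diet. With SalB they were 9.27 for SalB 1 and 3, and 54 and 46 for the pairs with SalB 2. The groups nevertheless shared an estimate of the spread in the fits. Reads that met proline and other families (36) were left out. Alternatives were other scalings, filters, fits, lengths and denominators, merged mismatch variants, and each library left out.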

Additional observations from a re-analysis of the deposited data

How the results depend on the processing

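The number of proline fragments called for SalB against high fat diet was 4. It was 16 with total counts as the scale, 15 with no filter on low counts, 7 with limma on log2 values, and from 1 to 5 with 1 library left out. For SalB against normal diet it was 10, and 24 with no filter, 6 with a stricter filter, 6 with only the libraries compared, and from 4 to 10 with 1 library left out. For high fat diet against normal diet it was 0 under every alternative run. The shares of all tested fragments called under these alternatives are not given here, so the counts show nothing particular to proline. The replicate numbers of the titles gave no clear sign of pairing the libraries. Correlations of deviations over 9 same-numbered pairs ran from -0.32 to 0.146, and 1 was over 0.1. With the replicate number as a block, 7 fragments were called for SalB against high fat diet, 11 against normal diet and 0 for high fat diet against normal diet. Of the calls made without the block, it removed only that of 17 to 30 for SalB against high fat diet (limma-voom adjusted p = 0.0639). In that comparison 1 rose and 6 fell with the block, beside 1 and 3 without it, so the block also added falls.

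With reads of 16 to 40 bases, which leaves out the 14-base fragments, the proline total was 0.01 for SalB against high fat diet and -0.32 for high fat diet against normal diet. The internal sum for high fat diet against normal diet was -0.12, the sum shared by the 3 anticodons 0.03 (SalB against high fat diet) and -0.34 (high fat diet against normal diet), and the Pro-TGG sum 0.02 for SalB against high fat diet, and 0.08 against normal diet. None of these was called. The proline share then differed by -0.862 points for SalB minus high fat diet and by -0.482 points for high fat diet minus normal diet. The mismatch difference was 3.16 points (adjusted p = 0.0117 by exact sign-flip permutation), and -0.852 points with each distinct sequence counted once. With total counts the proline total was -1.20 and -1.09 in the SalB comparisons, both called. With 1 library left out, the proline total for high fat diet against normal diet ran from -0.06 to 0.14 and the shared sum from -0.08 to 0.13. For SalB against normal diet the 5′ sum ran from -1.53 to 0.49, the internal sum from -0.28 to 0.07 and the Pro-TGG sum from -0.21 to 0.19. The mismatch difference ran from 0.870 to 1.62 points. Depth limits the fragments with few reads most: each tested fragment from base 8 rests on fewer than 10 reads in each SalB library.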

Other observations

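Proline precursor tRNAs gave few reads: 178 reads of 145 sequences, with 18, 12 and 43 in normal diet 1 to 3, 21, 6 and 9 in high fat diet 1 to 3, and 14, 38 and 17 in SalB 1 to 3. Their level was 539 ± 51.3 CPM with normal diet, 331 ± 123 with high fat diet and 641 ± 254 with SalB (SD, n = 3). The log2 difference of 0.88 for SalB against high fat diet missed the threshold (limma-voom adjusted p = 0.0918). The mitochondrial proline tRNA, encoded by the mitochondrial genome and not among the members, gave 46 reads in the 9 libraries, of which 17 were in SalB 2.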
